A study of Mus musculus with 12 samples.

Results

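The small leucine-rich proteoglycans are secreted proteins of the extracellular matrix, and 10 genes of the family were followed across 12 libraries of mouse embryonic fibroblasts. The members were taken by gene symbol: decorin (Dcn), biglycan (Bgn), asporin (Aspn), lumican (Lum), fibromodulin (Fmod), Prelp, keratocan (Kera), osteomodulin (Omd), osteoglycin (Ogn) and podocan (Podn). All 10 were present among the 24279 genes of the count table, and all 10 passed the filter on low counts that left 15186 genes for testing. The cells were primary fibroblasts from embryos at embryonic day 12.5, either wild type or Rsg1L3P/L3P, called mutant here. Rsg1 encodes a small GTPase-like protein involved in building primary cilia. The mice were of the F3 generation and were kept on 2 ppm folic acid, with their cells grown in DMEM at 225 ng/mL folic acid (moderate), or on 10 ppm, with medium at 3600 ng/mL (fortified). Diet and medium changed together and cannot be told apart. Each of the 4 groups of genotype and folic acid held 3 libraries, numbered 1 to 3 and listed in that order below. The labels do not say whether these came from separate embryos or litters, so the p-values measure only the spread between libraries.

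Proteins of this family have a core of leucine-rich repeats, and many carry chondroitin, dermatan or keratan sulfate chains. Several bind collagen and help to set the width and spacing of its fibrils in skin, tendon, cornea and bone. Decorin and biglycan are also known to bind growth factors such as TGF-beta and cell surface receptors. The family is divided into classes by sequence: Dcn, Bgn and Aspn are class I, Lum, Fmod, Prelp, Kera and Omd are class II, Ogn is class III and Podn is class V.

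Most members lie side by side in the mouse genome (GRCm38, GENCODE annotation). Dcn (chr10:97479609-97518143), Lum (chr10:97565128-97572703) and Kera (chr10:97606879-97613692) follow each other on the plus strand, with gaps of 47.0 and 34.2 kb. Aspn (chr13:49544443-49567565), Omd (chr13:49582462-49592822) and Ogn (chr13:49608046-49624501) do the same with gaps of 14.9 and 15.2 kb. All 3 of these lie inside Cenpp, a centromere protein gene on the opposite strand, which had 55 to 359 counts per library, and exons of Aspn and Cenpp overlap once. Prelp (chr1:133910304-133921414, minus strand) and Fmod (chr1:134037254-134048277, plus strand) are 115.8 kb apart. Bgn (chrX:73483602-73495933, plus strand) and Podn (chr4:108014791-108096445, minus strand) have no member beside them. Prelp overlaps an antisense transcript, Gm15851, and whether counting used strand is not given in the sources used here, so reads of the 2 cannot be told apart.

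The 250 bases upstream of the start are shown for both members of the chromosome 1 pair, Fmod and Prelp, whose levels rose together below, and for the outer members of the chromosome 13 trio, Aspn and Ogn, of which only Aspn passed the same test. They are RefSeq starts of GRCm38.p6, written 5′ to 3′ on the strand of the gene, with motif matches on either strand in capitals. Their positions are chr1:134037004-134037253 for Fmod, chr1:133921402-133921651 for Prelp, chr13:49544193-49544442 for Aspn and chr13:49607765-49608014 for Ogn.
Fmod: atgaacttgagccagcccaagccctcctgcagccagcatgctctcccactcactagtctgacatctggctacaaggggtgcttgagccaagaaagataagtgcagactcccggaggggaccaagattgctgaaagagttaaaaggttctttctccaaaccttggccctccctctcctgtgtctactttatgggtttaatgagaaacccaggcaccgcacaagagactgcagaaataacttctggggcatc
Prelp: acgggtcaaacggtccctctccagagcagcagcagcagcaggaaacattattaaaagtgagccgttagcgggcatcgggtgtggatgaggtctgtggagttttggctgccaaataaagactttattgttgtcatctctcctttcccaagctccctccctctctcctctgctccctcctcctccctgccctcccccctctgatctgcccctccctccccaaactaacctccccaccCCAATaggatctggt
Aspn: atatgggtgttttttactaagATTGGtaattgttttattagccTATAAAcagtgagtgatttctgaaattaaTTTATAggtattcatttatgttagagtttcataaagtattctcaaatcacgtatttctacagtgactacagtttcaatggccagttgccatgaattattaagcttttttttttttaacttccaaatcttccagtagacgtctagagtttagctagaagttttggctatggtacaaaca
Ogn: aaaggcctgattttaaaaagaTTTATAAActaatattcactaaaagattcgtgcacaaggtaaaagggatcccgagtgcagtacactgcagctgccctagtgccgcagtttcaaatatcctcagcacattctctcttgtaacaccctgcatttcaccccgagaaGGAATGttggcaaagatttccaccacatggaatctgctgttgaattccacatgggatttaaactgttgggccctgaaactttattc
The motifs searched, on both strands, were TATAAA, the letters of the TATA box, and CCAAT, known to be bound by NF-Y. Also searched were GGGCGG, known to be bound by Sp1, TGANTCA, an AP-1 motif, and GGAATG, a TEAD motif. The stretch before Fmod held none of the 5. The stretch before Prelp held 1 CCAAT, 15 to 11 bases before the start. Aspn had TATAAA at 207 to 202 bases before the start and again, on the other strand, at 178 to 173, and CCAAT on the other strand at 229 to 225. Ogn had a pair of overlapping TATAAA matches on opposite strands between 229 and 222 bases before the start, and GGAATG at 86 to 81. The TATAAA matches of both genes thus lay 173 or more bases before the start and are not shown to be core promoter boxes. Of 32851 starts in the RefSeq table, 12.4% held TATAAA, 33.8% CCAAT, 32.7% GGGCGG, 6.75% TGANTCA and 12.6% GGAATG in the same window. GC content was 51.2% for Fmod, 55.6% for Prelp, 30% for Aspn and 42% for Ogn, against a median of 52.4% over all starts. Among the members 8 had an entry in that table, with 9 starts. These matches are letters in a window and no binding was measured.

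Depth ran from 39339190 to 48475963 counts per library. A principal component analysis was made of all tested genes. On its first component (30.2% of variance), 3 libraries (fortified mutant 2 and 3 and moderate wild type 1) lay at 48.1 to 68. The other 9 libraries lay at -68.6 to 4.74. Among them, moderate wild type 2 (-68.6) and moderate wild type 3 (-53.7) stood at the low end, with the next library at -18.9. Only the 3 at the high end were left out as a set in later fits, and the low end was kept. In these 3 libraries the summed TPM (abundance corrected for gene length) of 14 skeletal muscle markers was 2845 to 4152, and in the other 9 it was 598.6 to 3074. The 12 fibroblast markers, among them Col1a1, Vim and Prrx1, were detected in every library, with summed levels of 6629 to 13300 TPM at moderate and 8776 to 19990 TPM at fortified folic acid. The 5 tendon markers (Kera is one of them) summed to 86.15 to 293.5 TPM at moderate and 240 to 548.4 TPM at fortified folic acid. Neuron markers summed to 386.8 TPM in moderate wild type 1, 281.9 in fortified mutant 2 and 193.4 in fortified mutant 3, above the 81.32 to 144.7 TPM of the other 9 libraries. Endothelial markers summed to 7.116 to 39.84 TPM over all libraries. Bone markers summed to 72.97 to 1777 TPM at moderate and 332.1 to 1277 TPM at fortified folic acid. Cartilage markers summed to 49.82 to 484.5 and 75.55 to 218.5 TPM, and smooth muscle and pericyte markers to 6078 to 9960 and 4363 to 10910 TPM. Macrophage and blood markers reached at most 104.2 TPM and epithelial markers 50.33 TPM. In such bulk samples, fewer cells that make a transcript and less transcript per cell cannot be told apart. The part of these other cell types in the results below was not tested.

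Per unit of length, Bgn was far the most abundant member. Its mean level was 2223 TPM over the 12 libraries (SD 887), rank 69 of 24279 genes. Ogn followed with 258 TPM (SD 70.2), then Aspn with 231 (SD 125), Dcn with 99.05 (SD 49), Lum with 53.8 (SD 55.7) and Fmod with 48.9 (SD 38.6). Podn averaged 13.1 TPM (SD 8.89), Prelp 4.05 (SD 3.6), Omd 1.84 (SD 1.01) and Kera 0.77 (SD 1.14). Only the step from Bgn to Ogn separated the ranges of neighbours in this order: the lowest Bgn value, 726.5 TPM, lay above the highest Ogn value, 395.2 TPM. Dcn exceeded Lum in 12 of 12 libraries, Aspn exceeded Dcn, Fmod exceeded Podn and Podn exceeded Prelp in 11 of 12, and Omd exceeded Kera in 9 of 12. Ogn and Aspn (8 of 12), Lum and Fmod (7 of 12) and Prelp and Omd (7 of 12) changed places from library to library.

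**Figure D1:**
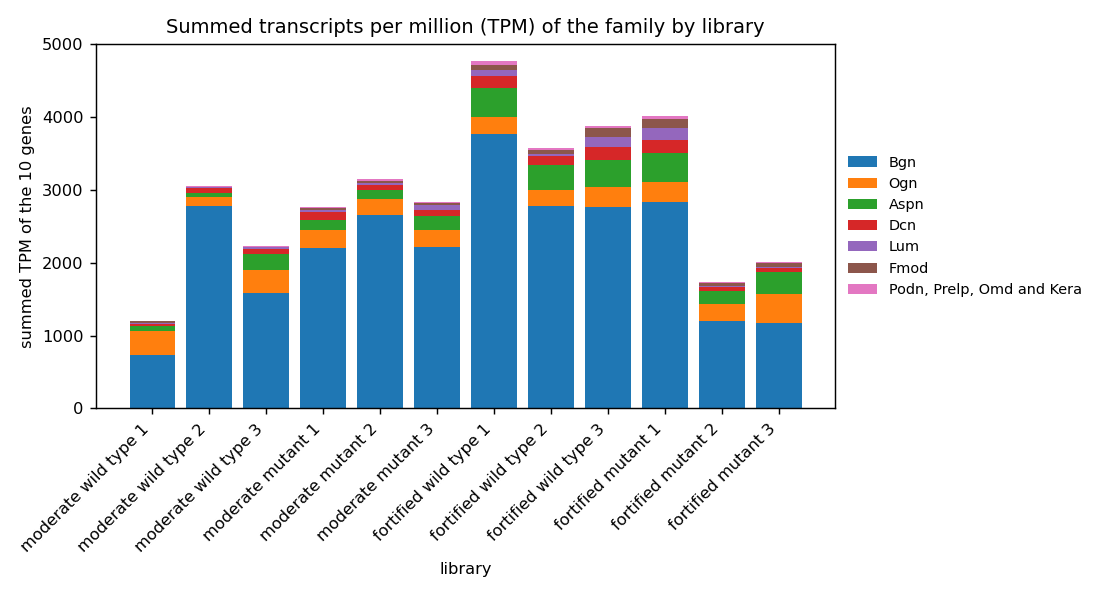
Summed TPM of the 10 genes in each library (vertical axis, linear from 0), with the contribution of each gene as a coloured segment and the 4 least abundant genes joined. Bgn forms 58.3 to 91% of every bar, and the sum runs from 1204 TPM in moderate wild type 1 to 4765 TPM in fortified wild type 1.

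The family total thus followed Bgn closely, as the plot of summed TPM shows. Bgn made up 91% of the family's TPM in moderate wild type 2 and 58.3% in fortified mutant 3. Ogn held the next largest share in moderate wild type 1, with 27.6%, and 3.82% in moderate wild type 2. The family total was lowest in moderate wild type 1, fortified mutant 2 (1729 TPM) and fortified mutant 3 (2011 TPM), the same 3 libraries that lay apart on the first component.

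The main question put to these data was how folic acid level and genotype related to expression. Each library entered a single edgeR quasi-likelihood model with a mean per group, and p-values were adjusted by the Benjamini-Hochberg method over all 15186 genes. Levels are given as counts per 1000000 counts of the library (CPM), scaled between libraries but not for gene length, and fold changes as log2 differences with their standard errors (SE). Over both genotypes, 4 of the 10 members rose from moderate to fortified folic acid and 0 fell: Fmod, Prelp, Aspn and Dcn. In the same comparison 17.8% of all genes passed an adjusted p of 0.05, 8.9% higher and 8.86% lower. The fold change was positive for 10 of 10 members, against 50% of all genes. Among the 10, Omd stood at 0.02 (SE 0.432), and its sign changed under some alternatives. The median over the members was 1.13, against 0.00 over all genes. That median was 0.502 without fortified mutant 1 and 0.516 by limma on log2(TPM + 1). The members were chosen with earlier results of these data known, and several vary together. Counts and medians over the set, here and below, therefore describe the members and are not a test.

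**Figure D2:**
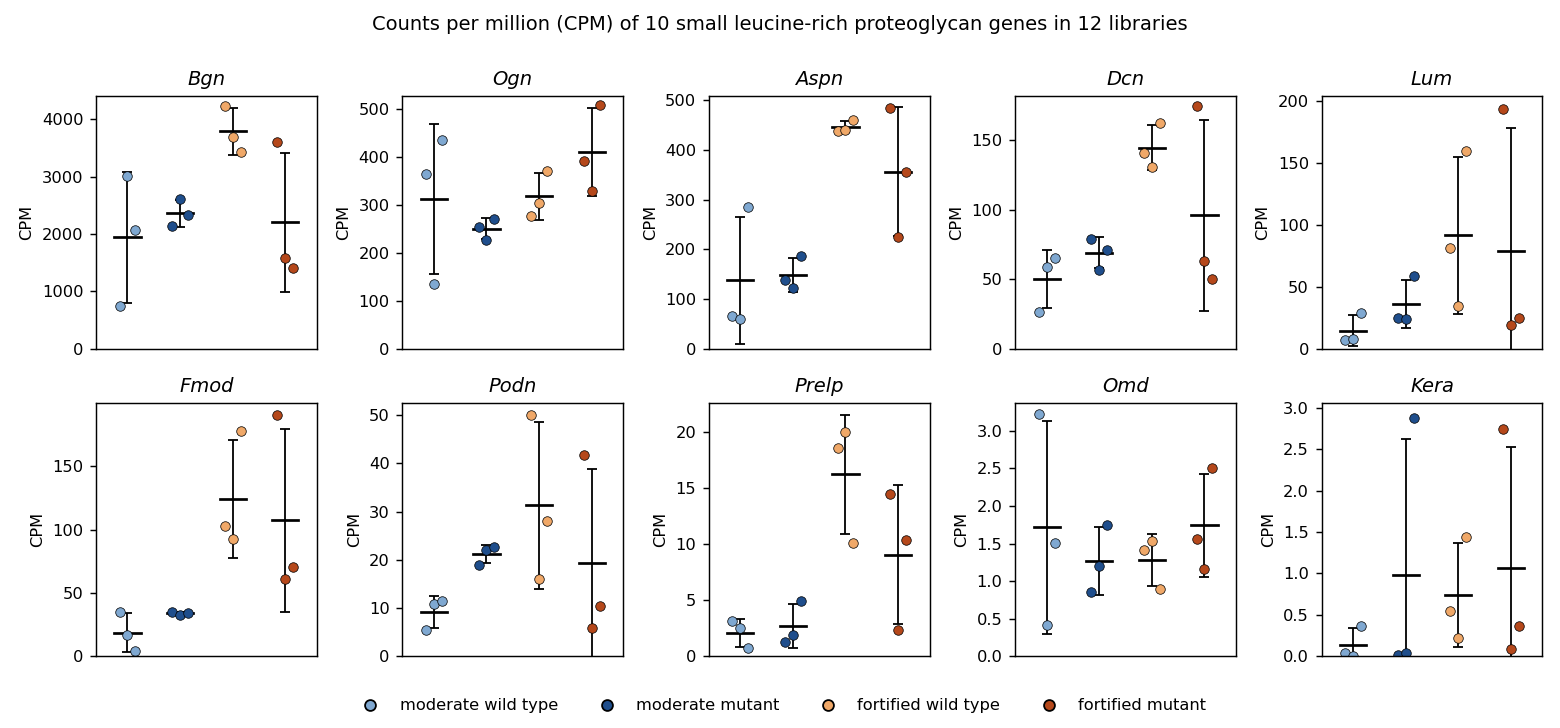
CPM of each of the 10 genes by group, with 1 point per library, the mean as a horizontal bar and the SD (n = 3) as an error bar, on a linear scale from 0 that differs between panels. Bars that would reach below 0 are cut at the axis. All 6 fortified points of Fmod (60.8 to 190.3 CPM) lie above all 6 moderate points (4.15 to 34.98 CPM), while the fortified mutant points of Dcn, Lum, Bgn and Podn split into 1 high and 2 low.

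Fibromodulin, a collagen-binding keratan sulfate proteoglycan that acts in tendon fibril assembly, separated the folic acid levels completely. Fmod measured 34.98, 16.7 and 4.15 CPM at moderate and 103, 92.4 and 178 at fortified folic acid in wild type cells, and 34.95, 32.4 and 34.3 against 190.3, 60.8 and 70.75 in mutant cells. All 6 fortified libraries lay above all 6 moderate ones, an arrangement found in that direction for 2.77% of all genes. The log2 fold change was 2.20 (SE 0.446, edgeR adjusted p = 0.0098), or 4.59-fold. It was the only member whose 6 fortified and 6 moderate libraries did not overlap.

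Its chromosomal neighbour Prelp encodes a basic matrix protein that is known to bind collagen and heparan sulfate. Prelp measured 3.115, 2.49 and 0.734 CPM at moderate and 18.5, 19.97 and 10.1 at fortified folic acid in wild type cells, and 1.29, 1.9 and 4.95 against 14.45, 2.31 and 10.4 in mutant cells. Of the fortified libraries 5 lay above every moderate one, and fortified mutant 2 lay inside the moderate range. The log2 fold change was 2.34 (SE 0.509, edgeR adjusted p = 0.0128), or 5.06-fold.

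Asporin, a class I member with an aspartate-rich stretch and no known glycosaminoglycan chain, rose less. Aspn measured 66.7, 60.3 and 285.5 CPM at moderate and 439, 441 and 459.5 at fortified folic acid in wild type cells, and 139, 121 and 187 against 485.5, 226 and 357 in mutant cells. The 2 sets overlapped through a single pair: moderate wild type 3 lay above fortified mutant 2. Its log2 fold change was 1.48 (SE 0.362, edgeR adjusted p = 0.0195). Aspn lost its call in 1 of 22 alternative analyses, without moderate mutant 2 (adjusted p = 0.0517), while Fmod and Prelp passed in 22 of 22.

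Decorin, the class I proteoglycan with a single chondroitin or dermatan sulfate chain, passed by a narrow margin. Dcn measured 26.2, 59.2 and 65.5 CPM at moderate and 141, 131 and 163 at fortified folic acid in wild type cells, and 79.3, 56.9 and 71.4 against 175, 63.1 and 50.3 in mutant cells. Fortified mutant 2 and 3 stayed within the moderate range, and the other 4 fortified libraries lay above it. Over both genotypes the difference was 1.00 on the log2 scale (SE 0.307, edgeR adjusted p = 0.0432). The call held in 11 of 22 alternatives, and without fortified mutant 1 the fold change was 0.62 (adjusted p = 0.0819). On log2(TPM + 1) it was 0.71 (limma adjusted p = 0.0935).

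Lumican, a keratan sulfate proteoglycan of cornea and skin, had a larger difference than Dcn but a wider spread. Lum measured 7.095, 7.76 and 29.05 CPM at moderate and 80.8, 34.45 and 159.5 at fortified folic acid in wild type cells, and 25.1, 24.2 and 58.6 against 193, 18.9 and 24.4 in mutant cells. The 3 highest values were all fortified, yet fortified mutant 2 lay below all 3 moderate mutant libraries and fortified mutant 3 among them. The log2 fold change of 1.89 (SE 0.64) did not pass by edgeR (adjusted p = 0.0611). It passed by DESeq2 (adjusted p = 0.0314) and without moderate wild type 3 (2.38, adjusted p = 0.0414), fortified mutant 2 (adjusted p = 0.0456) or fortified mutant 3 (adjusted p = 0.0461). Without fortified mutant 1 it was 0.96 (edgeR adjusted p = 0.202), on log2(TPM + 1) it was 1.30 (limma adjusted p = 0.131), and limma-voom with quality weights gave 1.35 (adjusted p = 0.077).

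Biglycan, the class I relative of decorin that usually carries a pair of chains, did not pass. Bgn measured 748, 3014 and 2069 CPM at moderate and 4240, 3694 and 3436 at fortified folic acid in wild type cells, and 2134, 2612 and 2340 against 3607, 1588 and 1413 in mutant cells. The 4 highest values were the 3 fortified wild type libraries and fortified mutant 1. Its log2 fold change was 0.43 (SE 0.316, edgeR adjusted p = 0.366). Bgn is X-linked. Xist, which marks the inactive X chromosome, was present in moderate wild type 1, fortified wild type 1 and all 6 mutant libraries (19961 to 40641 counts) and had 1 to 9 counts in the other 4 wild type libraries. The lowest (748 CPM, moderate wild type 1) and the highest (4240 CPM, fortified wild type 1) Bgn values both came from libraries with Xist. Those libraries also differ in folic acid, and the part of Xist status in Bgn levels was not tested.

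Podocan, a class V member, measured 5.45, 10.95 and 11.4 CPM at moderate and 49.96, 15.9 and 28 at fortified folic acid in wild type cells, and 18.98, 21.98 and 22.6 against 41.7, 5.87 and 10.5 in mutant cells. The wild type cells were higher at fortified folic acid in every library, whereas fortified mutant 2 and 3 lay below all 3 moderate mutant libraries. Its log2 fold change over both genotypes was 0.81 (SE 0.437, edgeR adjusted p = 0.214). It was 0.19 without fortified mutant 1 (edgeR adjusted p = 0.713) and 0.23 with limma-voom (adjusted p = 0.688).

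Osteoglycin and osteomodulin, neighbours of Aspn on chromosome 13, are small proteoglycans first known from bone. Ogn measured 365, 135 and 435 CPM at moderate and 276, 304.5 and 371 at fortified folic acid in wild type cells, and 253, 226.5 and 269 against 390, 328 and 508.5 in mutant cells. The wild type ranges overlapped widely, and in mutant cells all 3 fortified libraries were above all 3 moderate ones. Over both genotypes the log2 fold change was 0.37 (SE 0.238, edgeR adjusted p = 0.302).

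Omd measured 3.22, 0.411 and 1.51 CPM at moderate and 1.42, 1.54 and 0.895 at fortified folic acid in wild type cells, and 0.8535, 1.21 and 1.75 against 1.56, 1.165 and 2.51 in mutant cells. Its highest and its lowest value both stood in moderate wild type. The log2 fold change was 0.02 (SE 0.432, edgeR adjusted p = 0.982), and it was negative on the TPM scale (-0.06 with limma on log2(TPM + 1)). Keratocan, a keratan sulfate proteoglycan best known from cornea, was close to the limit of detection. Kera had 2, 0 and 16 counts at moderate and 25, 10 and 66 at fortified folic acid in wild type libraries, and 1, 2 and 115 against 130, 4 and 16 in mutant libraries. A single library held most of the counts in each mutant group, and no difference passed (edgeR adjusted p = 0.48 over both genotypes).

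**Figure D3:**
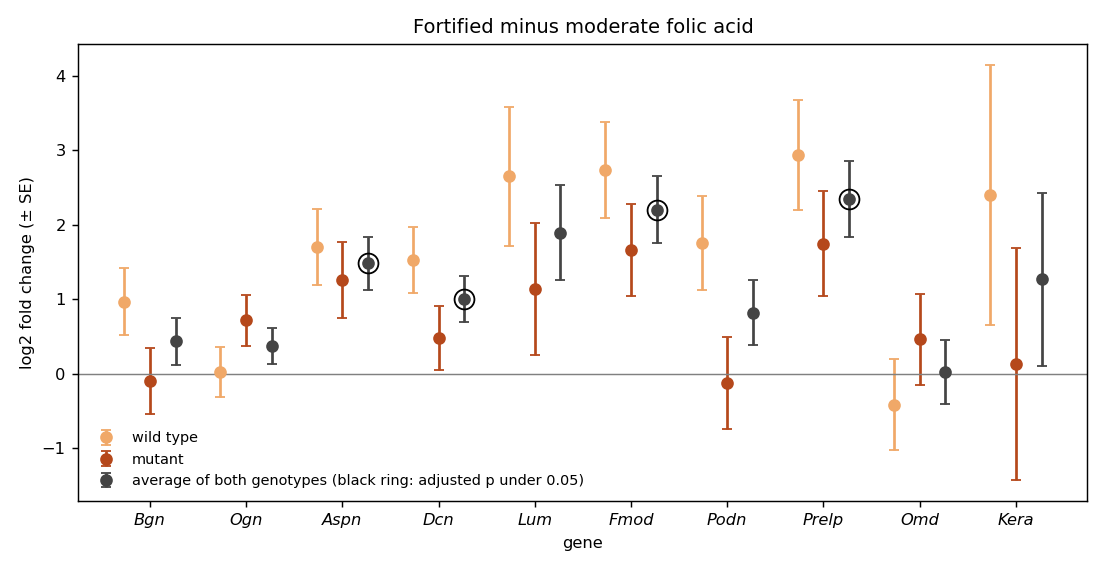
Log2 fold change (fortified minus moderate) of each gene, with its SE as an error bar, in wild type cells, in mutant cells and as the average of both, with black rings on the averages that passed an adjusted p of 0.05. The rings mark Aspn (1.48), Dcn (1.00), Fmod (2.20) and Prelp (2.34), and the wild type point lies above the mutant point for all genes but Ogn and Omd.

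Split by genotype, the wild type and mutant cells gave the plot of folic acid differences. In wild type cells 0 of 10 members passed by edgeR, where 0.0263% of all genes (4 genes) did. The fold change was positive for 9 of 10 members, against 46.8% of all genes, with a median of 1.73, against -0.04 over all genes. Groups of 3 did not overlap for 7 of the 10, all higher at fortified folic acid, an arrangement found in that direction for 11% of all genes. These 7 were Dcn, Bgn, Aspn, Lum, Fmod, Prelp and Podn. The largest differences were 2.94 for Prelp (SE 0.736, edgeR adjusted p = 0.0881) and 2.74 for Fmod (SE 0.644, adjusted p = 0.0839). Dcn had 1.53 (adjusted p = 0.11), Aspn 1.70 (adjusted p = 0.121), Lum 2.65 (adjusted p = 0.159) and Podn 1.76 (adjusted p = 0.165). At an unadjusted edgeR p under 0.05, 6 members were higher, against 9.67% of all genes. DESeq2 called 5 members higher in this comparison (Dcn, Aspn, Fmod, Prelp and Podn), where it called 4.17% of all genes higher and 3.63% lower. Without moderate wild type 1, edgeR called Fmod and Prelp, with 3.17% of all genes higher. Without fortified mutant 1 it called Dcn and Fmod, with 1.22% of all genes higher, and without moderate wild type 3 it called Aspn, with 0.013%.

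In mutant cells 0 of 10 members passed by edgeR, where 6.93% of all genes did. Values were positive for 8 of 10, against 53% of all genes, with a median of 0.593, against 0.04 over all genes. The members' median was 0.12 without fortified mutant 1, 0.0972 by limma on log2(TPM + 1) and 1.39 without the 3 libraries that lie apart. Aspn, Fmod and Ogn did not overlap between the folic acid levels, each higher at fortified, as did 19.6% of all genes. Fmod had a log2 fold change of 1.66 (SE 0.619, edgeR adjusted p = 0.118), Prelp 1.74 (adjusted p = 0.148), Aspn 1.26 (adjusted p = 0.148) and Ogn 0.71 (adjusted p = 0.212). Bgn (-0.10) and Podn (-0.13) had negative values. At an unadjusted p under 0.05, 3 members were higher, against 13.5% of all genes. DESeq2 called Fmod higher, with 8.51% of all genes. Limma-voom with quality weights called Aspn, Fmod and Ogn higher, with 18.1% of all genes, and Podn lower (-1.27, adjusted p = 0.0354), with 16.6%. On the mutant libraries alone edgeR called Aspn, Fmod and Ogn higher, with 7.74% of all genes. It called Ogn without moderate wild type 2 (4.86% of all genes higher) and Aspn and Fmod without moderate wild type 3 (6.62%), although neither library belongs to this comparison.

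The spread inside the fortified mutant group bore on several members at once. Fortified mutant 1 exceeded fortified mutant 2 and 3 for Dcn, Bgn, Aspn, Lum, Fmod, Prelp, Podn and Kera. Lum was 10.63 times as high in the highest as in the lowest of these 3 libraries on the TPM scale, Podn 7.405 times and Prelp 6.484 times, against 1.701 times for Ogn. Fortified mutant 2 and 3 had the lowest family totals of the fortified libraries, 1729 and 2011 TPM. Leaving them out by itself raises the fortified mutant mean of every member that was highest in fortified mutant 1. Fortified mutant 2 and 3 are also among the 3 libraries that lie apart on the first component, with moderate wild type 1 (1204 TPM). Without those 3, which leaves 1 fortified mutant library, 7 of 10 members passed over both genotypes, against 13.4% of all genes higher and 12% lower. These were Fmod (3.01), Prelp (2.86), Lum (2.36), Aspn (1.53), Dcn (1.26), Podn (1.22) and Bgn (0.58). In wild type cells Dcn, Fmod and Prelp then passed, with 4.23% of all genes higher. In mutant cells Dcn and Fmod passed, with 4.12% of all genes higher, in a comparison with 1 fortified library that is assumed to vary like the other groups.

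Mutant and wild type cells were compared at each folic acid level. All mutant libraries held Xist, and most wild type libraries at each level did not. Genotype and Xist status therefore largely cannot be told apart in any result below that compares genotypes. No member passed: 0 of 10 by edgeR at moderate and 0 of 10 at fortified folic acid, where 0% of all genes passed in each. At an unadjusted p under 0.05 there were also 0 members at either level, against 7.87% of all genes at moderate and 3.29% at fortified folic acid. DESeq2 called 42 and 7 genes, 0 of them members. Averaged over both levels, 0 of 10 members passed by edgeR or DESeq2 (0% of all genes by edgeR), with 0 at an unadjusted p under 0.05 against 4.64%. At moderate folic acid 8 of 10 members had positive values (median 0.409, all genes -0.05), as did 43.6% of all genes. At fortified folic acid 3 of 10 had positive values (median -0.272, all genes 0.01), as did 51% of all genes, and 0 members had groups that did not overlap, against 10.3% of all genes. That median was 0.274 without the 3 libraries that lie apart.

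**Figure D4:**
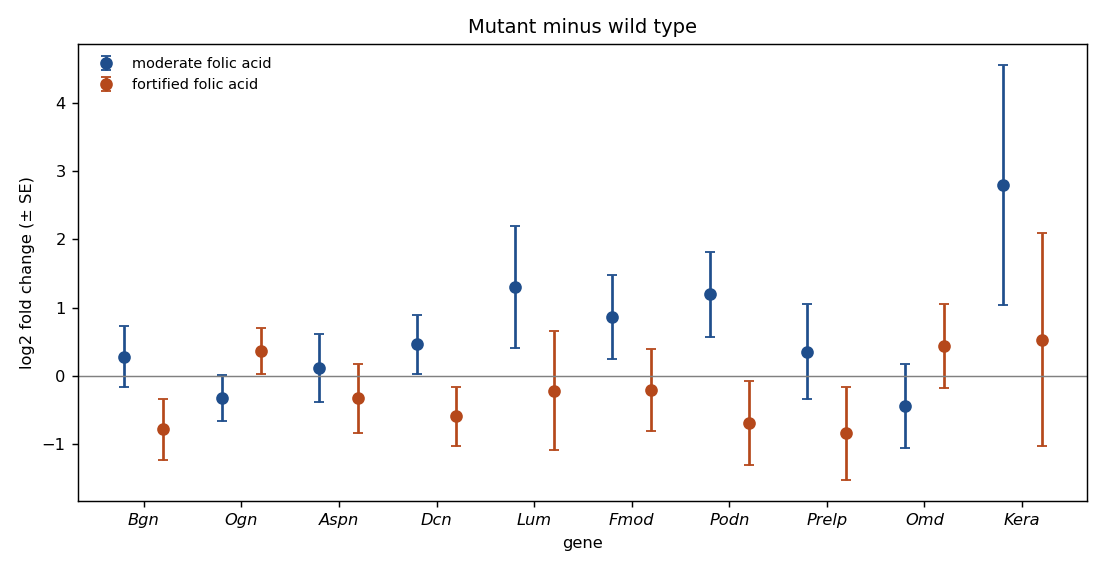
Log2 fold change (mutant minus wild type) of each gene with its SE as an error bar, at moderate and at fortified folic acid. The moderate value is the higher one for 8 of the 10 genes, and no value passed an adjusted p of 0.05.

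Podn came closest to a genotype difference. At moderate folic acid its 3 mutant libraries (18.98 to 22.6 CPM) lay above its 3 wild type libraries (5.45 to 11.4 CPM), and it was the only member whose genotype groups did not overlap, against 6.34% of all genes in that direction. The difference was 1.19 on the log2 scale (SE 0.623, edgeR adjusted p = 0.659). At fortified folic acid it was -0.69 (SE 0.615, adjusted p = 0.939). The interaction, which asks whether the folic acid difference itself differs between genotypes, was -1.89 for Podn (SE 0.875, edgeR adjusted p = 0.708).

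For the other members the plot of genotype differences shows standard errors that were large beside the values. At moderate folic acid Lum had 1.30 (SE 0.894), Fmod 0.86 (SE 0.611), Dcn 0.46 (SE 0.431), Bgn 0.28 (SE 0.447) and Ogn -0.32 (SE 0.337). At fortified folic acid Bgn had -0.78 (SE 0.449), Prelp -0.84 (SE 0.684), Dcn -0.59 (SE 0.43) and Ogn 0.37 (SE 0.337). The interaction called 0 of 10 members, by edgeR (0% of all genes) and by DESeq2, with 0 members at an unadjusted p under 0.05 against 6.68% of all genes. The median interaction over the members was -1.07, and -0.08 without the 3 libraries that lie apart.

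How the members varied together was described by Pearson's r of log2 CPM over the 12 libraries, which share depth scaling and the folic acid and genotype groups. Dcn and Bgn had r = 0.879 although they lie on different chromosomes, and r = 0.852 within groups, that is, after each group's mean was subtracted. The neighbours Dcn and Lum had 0.867 (0.776 within groups), Lum and Kera 0.859 (0.848), and Lum and Podn, which are not neighbours, 0.827 (0.794). The chromosome 1 pair, Fmod and Prelp, had 0.832 over all libraries and 0.587 within groups.

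The chromosome 13 trio was less uniform. Omd and Ogn had r = 0.738 and Aspn and Ogn 0.606, while Aspn and Omd had 0.22. Over all libraries Aspn was closer to Lum (0.817) and Dcn (0.77) on chromosome 10 than to either neighbour. Within groups Aspn had 0.714 with Lum, 0.631 with Ogn, 0.516 with Dcn and 0.256 with Omd. Bgn had negative values with Omd (-0.539) and Ogn (-0.334). Dcn and Fmod, both of which rose with folic acid, had 0.59 over all libraries and -0.01 within groups.

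**Figure D5:**
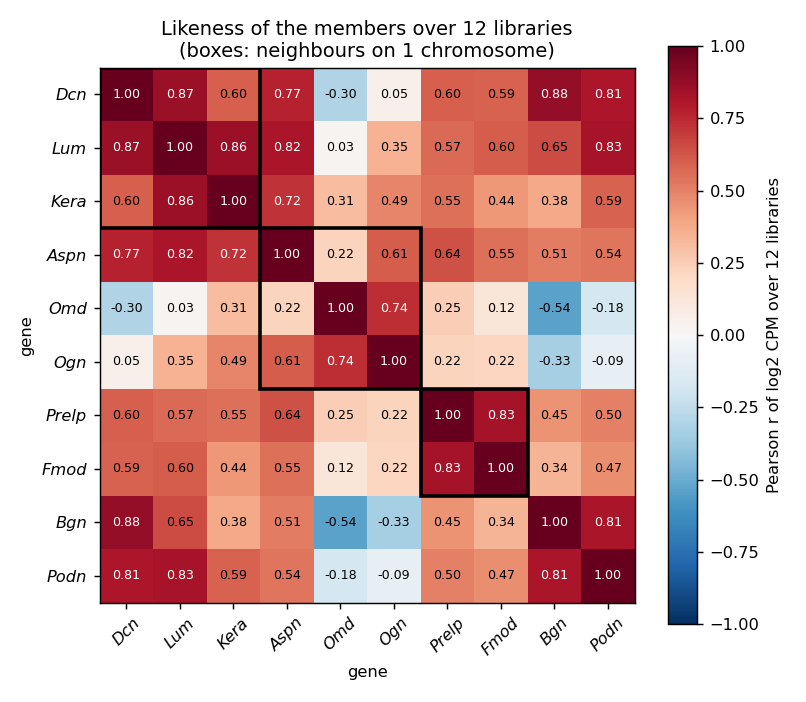
Pearson's r of log2 CPM over 12 libraries for each pair of genes, on a colour scale from -1 (blue) to 1 (red), with black boxes around genes that are neighbours on 1 chromosome. Dcn, Lum, Bgn and Podn have values of 0.65 to 0.88 with each other, and Omd and Ogn have negative values with Bgn and Podn.

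Beside the grid of correlations, the members differed in how much of their spread lay between the 4 groups. The share of variance in log2 CPM between groups was 72.9% for Fmod, 68.8% for Aspn, 67.9% for Prelp and 57.5% for Dcn, and the median over all tested genes was 39%. It was 28.6% for Ogn and 6.12% for Omd. All 10 members varied more than the median gene: their SD of log2 CPM ran from 0.503 (Ogn) to 2.08 (Kera), and the median gene had 0.41. A larger SD was still found for 38.7% of all tested genes beside Ogn, 21.8% beside Bgn and 20.7% beside Omd. The SD of Kera and Omd also rests on low counts.

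Among 10618 other genes with a mean of at least 5 CPM, those most like each member over the 12 libraries were listed by r. Nearest to Dcn were Fcgrt (0.967), the neonatal Fc receptor, and Ccpg1 (0.965). Nearest to Bgn was Gatsl3 (0.974). Hgf (hepatocyte growth factor, 0.909) and the matrix glycoprotein Thbs4 (0.892) were among the 3 nearest to Aspn, and Il11ra1, an interleukin-11 receptor chain, led for Lum (0.962). Acvr1, a BMP receptor (0.965), and Ptgis, prostacyclin synthase (0.964), led for Fmod, and Cyth3 (0.975) for Prelp. Igsf10 (0.958) led for Podn, Zfp37 (0.947) for Ogn and Stard7 (0.933) for Omd. Kera was the only member with another member among its 3 nearest genes, Lum (0.859), behind Agtr2 (0.879).

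Genes that work with these proteoglycans were taken from lists, and their results are for fortified minus moderate folic acid over both genotypes by edgeR. Of 17 collagens and other matrix partners, 10 rose and 0 fell (median 0.774), where 8.9% of all genes rose and 8.86% fell. The collagen VI chains Col6a1 (1.19), Col6a2 (1.29) and Col6a3 (1.48), the collagen I chains Col1a1 (1.26, adjusted p = 0.0116) and Col1a2 (0.95), and elastin (Eln, 1.29, adjusted p = 0.00754) had the highest of these values. Col1a1 averaged 2806 ± 1664 CPM (SD, n = 3) at moderate and 11190 ± 2467 at fortified folic acid in wild type cells, and 4096 ± 529 against 5889 ± 1518 in mutant cells. Col3a1 (0.78), Col5a1 (0.77), Col11a1 (0.66) and Col12a1 (0.81) also rose in this average. Within each genotype 0 of the 17 passed, where 0.0263% of all genes did in wild type and 6.93% in mutant cells. The median was 1.45 in wild type and 0.102 in mutant cells, where 7 of the 17 values were negative. Col11a1 averaged 279 ± 91.9 CPM at moderate and 771 ± 99.9 at fortified folic acid in wild type cells. In mutant cells it averaged 535 ± 80.1 against 486 ± 83.2. Col1a1, Col1a2 and Col3a1 are fibroblast markers too, a list in which 5 of 12 rose and 0 fell.

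Sulfation and chain synthesis moved in part, where 8.9% of all genes rose and 8.86% fell. Of 9 genes for sulfate and sugar supply 4 rose and 0 fell: Papss1 (0.93, adjusted p = 0.00752) and Papss2 (1.33, adjusted p = 0.0186), which make the activated sulfate, Slc35b2 (0.58), which carries it into the Golgi, and Ugp2 (0.35). Papss1 averaged 49.3 ± 20.1 CPM at moderate and 92.8 ± 2.455 at fortified folic acid in wild type cells, and 46.1 ± 6.36 against 88.3 ± 14.25 in mutant cells (SD, n = 3), with no overlap between folic acid levels. Papss1, Slc35b2 and Ugp2 also passed in mutant cells alone, where 6.93% of all genes did. Of 22 genes of linker and chondroitin or dermatan sulfate synthesis, 4 rose and 0 fell (Chpf2, 0.89; Chsy3, 0.50; Dsel, 0.67; Fam20b, 0.36), and of 11 keratan sulfate genes 2 rose and 0 fell (the sulfotransferase Chst2, 0.78, and the sialyltransferase St3gal2, 0.63).

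Of 20 ligands and receptors 0 rose and 2 fell, against 8.9% and 8.86% of all genes. The epidermal growth factor receptor Egfr, to which decorin is known to bind, fell by 0.60 on the log2 scale (SE 0.111, adjusted p = 0.0076), and the VEGF receptor Kdr by 1.40 (adjusted p = 0.0393). Egfr averaged 153 ± 21.1 CPM at moderate and 133 ± 7.75 at fortified folic acid in wild type cells, and 229 ± 41.8 against 115 ± 2.18 in mutant cells (SD, n = 3), and it also passed in mutant cells alone (adjusted p = 0.0101). Kdr is an endothelial marker as well. Of 14 processing enzymes the aggrecanase Adamts4 rose (1.00, adjusted p = 0.0219). Gzmb fell at levels under 1 CPM, from means of 0.313 in wild type and 0.344 in mutant cells at moderate to 0.0151 and 0.0292 CPM at fortified folic acid (adjusted p = 0.0232). Among 22 other proteoglycans the syndecans Sdc1 (0.71) and Sdc3 (0.68) rose and 0 fell, a share of rises near the 8.9% of all genes. Of 7 further leucine-rich proteoglycan family genes that were tested 0 passed, with 2 at an unadjusted p under 0.05: Podnl1 (0.92, adjusted p = 0.0833) and Ecm2 (0.92, adjusted p = 0.0788).

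The list counts differed under limma on log2(TPM + 1), which changes both the scale and the test. There the median of all genes was -0.15, and 587 genes (3.87%) were called higher and 3154 (20.8%) lower. Of 17 matrix partners 5 rose (Col1a1, Col6a1, Col6a2, Col6a3 and Eln). On that scale 3 of 9 supply genes (Papss1, Papss2 and Slc35b2), 1 of 22 chondroitin or dermatan sulfate genes (Chpf2) and 1 of 11 keratan sulfate genes (Chst2) rose. Of 20 ligands or receptors 5 fell, a share near the 20.8% of all genes, and of 22 other proteoglycans 0 passed. Also, 1 supply gene fell, 0 of 14 processing enzymes rose and 1 fell, and 1 of 12 fibroblast markers rose (Col1a1). Of the members, Aspn, Fmod and Prelp rose on it. With library totals alone as the scaling, 988 genes were called higher and 1896 lower. Without the 3 libraries that lie apart, edgeR called 9 matrix partners, 5 chondroitin or dermatan sulfate, 3 keratan sulfate and 3 supply genes higher, with 1 supply gene lower. It also called 2 of the 7 further leucine-rich proteoglycan family genes higher, with 13.4% of all genes.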

How the data were processed

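Polyadenylated RNA of 12 libraries was measured. The authors deposited a table of expected counts per gene and a table of TPM, made by salmon as the file names give it; neither its version nor its annotation is stated in the sources used here, and the build is mm10 per the submitters' processing notes. The column letters B and P are not explained, and columns were matched to samples by the submitters' column numbers. Expected counts were rounded. A filterByExpr step with a minimum count of 10 and a minimum total of 15 removed 9093 of 24279 genes. Libraries were scaled by TMM, with a prior count of 2 added for log2 CPM. All libraries entered 1 fit with a mean per group (edgeR 4.0.16, glmQLFit and glmQLFTest, R 4.3.3) with 7 contrasts, which share groups, and a threshold of 0.05 after Benjamini-Hochberg adjustment. The deposited TPM gave levels per length and an alternative with limma 3.58.1 (pseudocounts 1 and 0.1).

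Other alternatives were DESeq2 1.42.0, limma-voom, median-of-ratios scaling, library totals, 2 other filters, a replicate block, only the groups compared, and leaving out each library or the 3 that lie apart. For the lists, the TPM scale and leaving out those 3 were added after their values were seen. Named genes were all members, of each list the 4 with the smallest p and any that passed, and the 3 genes most correlated with each member. The members and lists were chosen with earlier results of these data known. The procedure was tested on simulated data. There each gene varied independently of the others, so the test did not cover libraries that differ in many genes at once, as the 3 that lie apart do.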

Additional observations from a re-analysis of the deposited data

How the results depend on the processing

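Each result was recomputed under up to 23 alternatives, 12 of which left out 1 library. Of 1161 single-gene values 1055 kept their direction and side of the threshold, 12 lost and 33 gained a call, and 61 changed sign. The causes of these changes were not tested. Depth limits Kera most, at 0 to 130 counts per library, while the lowest library held 16 counts of Omd and 32 of Prelp. Members called by fortified folic acid in wild type cells numbered 5 with DESeq2 and 3 without the 3 libraries apart, in mutant cells 1 with DESeq2, 4 with limma-voom (3 higher and Podn lower), 3 on the groups compared and 2 without the 3 libraries, and over both genotypes 7 without them. Leaving out 1 library gave 0 to 2 in wild type, 0 to 2 in mutant cells and 2 (without moderate mutant 2, Aspn and Dcn being lost) to 5 over both. The members' median for mutant minus wild type at fortified folic acid was -1.21 with limma-voom and -1.34 to -0.021 with 1 library left out. For fortified minus moderate it was 1.39 in mutant cells without the 3 libraries, and over both genotypes 0.516 on log2(TPM + 1) and 0.502 to 1.54 with 1 library left out. For the interaction it was -0.0773 without the 3 libraries and -1.75 to -0.701 with 1 left out. The lowest of these 3 sets of medians each came without fortified mutant 1.

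Sign changes for mutant minus wild type at moderate folic acid were Prelp -0.0659, Omd 0.259 and Ogn 0.116 with limma-voom, Ogn 0.0164 on log2(TPM + 1), Omd 0.0852 and Ogn 0.0172 on log2(TPM + 0.1), and Bgn -0.0854, Aspn -0.182 and Omd 0.419 without the 3 libraries. With 1 library left out the ranges that crossed 0 were Bgn -0.105 to 0.746, Aspn -0.24 to 1.23, Prelp -0.405 to 0.751, Kera -2 to 5.24 and Omd -0.899 to 0.392. At fortified folic acid Kera was -1.5 with limma-voom and -0.167 on log2(TPM + 0.1), and without the 3 libraries Dcn was 0.258, Aspn 0.106, Lum 1.06, Fmod 0.601 and Podn 0.399. The ranges were Lum -2.08 to 0.454, Fmod -0.919 to 0.138 and Kera -1.71 to 1.46.

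For fortified minus moderate in wild type cells Omd was 0.55 with limma-voom and 0.423 without the 3 libraries (range -0.881 to 0.41), and Ogn -0.0752 with library totals (range -0.334 to 0.345). In mutant cells Dcn was -0.0962 and Lum -0.0646 with limma-voom, Dcn -0.0724 and -0.075 on log2(TPM + 1) and log2(TPM + 0.1), and Bgn 0.579 and Podn 0.945 without the 3 libraries. The ranges were Dcn -0.289 to 0.755, Bgn -0.656 to 0.112, Lum -0.734 to 1.68, Kera -2.1 to 4.92 and Podn -1.37 to 0.27. Over both genotypes Omd was -0.0561, -0.0239 and -0.0629 on log2(TPM + 1), log2(TPM + 0.1) and library totals (range -0.212 to 0.434).

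Dcn lost its call over both genotypes with the replicate block (0.95, adjusted p = 0.0801), on log2(TPM + 1) (0.0935) and log2(TPM + 0.1) (0.0897), and without moderate mutant 1 (0.0692), 2 (0.0992) or 3 (0.0889), moderate wild type 2 (0.0582), fortified mutant 1 (0.0819) or fortified wild type 1 (0.074), 2 (0.0662) or 3 (0.0917). No pairing by replicate number was detected. Deviations of libraries with the same number correlated at -0.477 to 0.244, and 3 of 12 libraries correlated best with their own number. Such a check could miss a shared litter, which the labels do not give. With the block 0 members were called within either genotype and 3 over both. For all genes it called 65 in wild type, 559 in mutant cells and 2309 over both, against 4, 1053 and 2696 without it. Other alternatives called 0 (only the groups compared) to 1298 genes (without the 3 libraries) in wild type cells, with 1154 by DESeq2, and 559 to 5273 (limma-voom) in mutant cells, with 2349 by DESeq2. With 1 library left out the counts ran from 1 to 1012 in wild type (1012 without moderate wild type 1), 0 to 2073 in mutant cells and 1411 to 4025 over both. DESeq2 called 12 genes for genotype over both folic acid levels and 5 for the interaction, where edgeR called 0.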
